A study of Mus musculus with 6 samples.

Results

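The nuclear genes for the subunits of the mitochondrial respiratory chain and the ATP synthase were examined in abdominal adipose tissue of mice that had undergone either a bypass of the duodenum and upper jejunum (duodenal-jejunal bypass, DJB) or sham surgery (Sham). The members were all genes whose symbol in the array files is that of a subunit of complexes I to V by its stem (Nduf followed by a, b, c, s or v, Sdha to Sdhd, Uqcr, Cox4 to Cox8, or Atp5), together with Cyc1 and Cycs and without Cox7a1 and Cox8b. This rule gave 91 genes with 119 probes, of 19194 genes named by symbol. It reads no measured value, but it was set with earlier results of these data known. Cox7a1 and Cox8b, which it leaves out, were both called lower in DJB, as given below. One probe stood for each gene, that with the highest mean signal. The rule reads symbols, and by function it also took in the 7 assembly factors Ndufaf1 to Ndufaf7, which build complex I without being part of it, and Atp5s and Atp5sl, which a current gene table lists as Dmac2l and Dmac2. Ndufa4 carries a complex I name and is placed with complex IV here, of which it is known to be a subunit.

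All mice were C57BL/6, were fed fat-rich chow from an age of 6 weeks and, described as diabetic by then, were randomised to surgery after 12 weeks of it. In the DJB group, operated under buprenorphine, the biliopancreatic limb measured 5 cm and the Roux limb 4 cm. The Sham group had the same incision and the same cuts of the intestine, which were sewn back in place. Each group has 3 arrays of 1 colour, and the labels give neither the sex, nor the fat depot, nor the time after surgery, nor whether each array is a different animal. The p-values therefore measure only the spread between these samples, which may be technical.

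The respiratory chain lies in the inner mitochondrial membrane. Complexes I and II take electrons from NADH and succinate, complex III passes them to cytochrome c, complex IV passes them on to oxygen, and complex V, the ATP synthase, uses the proton gradient that complexes I, III and IV build. White fat cells hold fewer mitochondria than brown ones, and brown fat and muscle use their own isoforms of a few complex IV subunits. The subunits encoded by the mitochondrial genome were not analysed here.

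The respiratory chain genes differed little between the groups, in either direction. None of the 89 tested members was called lower or higher in DJB (limma's moderated test, adjusted p under 0.05), whereas 1133 of the 16164 tested named genes were called (7.01%), 792 of them lower (4.9%) and 341 higher (2.11%). With normexp background correction 9 members were called, 8 lower and 1 higher, where 16.2% of named genes were, and with a trended robust prior 5 were, 3 lower and 2 higher, also beside 16.2%. At an unadjusted p under 0.05, 7 members were lower and 3 higher, beside 18.1% and 17.4% of all named genes. The members' differences (DJB minus Sham, log2) ranged from -0.59 to 0.44 with a median of -0.03, and their standard deviation was 0.183 against 0.771 over all named genes, whose median was 0.05. All 3 DJB arrays lay below all 3 Sham arrays for 21 members and above them for 11, where 19.7% and 25.4% of all named genes did so. Of the tested members 68 differed by less than 0.2 and 9 by 0.3 or more. The 95% confidence interval of the difference lay wholly within a 2-fold change in either direction for 89 of 89 members, and for 68.9% of all named genes. For 79 members it lay within 1.5-fold, against 37.4% of all named genes. The intervals were also narrower for the members, with a median half-width of 0.268 against 0.379, and 88 members were well above background on all 6 arrays. The scaling sets the zero of these differences. With each array scaled by its median, all named genes moved up to a median of 0.15 and the members to 0.08, and 30 members were below 0 and 59 above, against 52 and 37 in the main scaling.

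**Figure D1:**
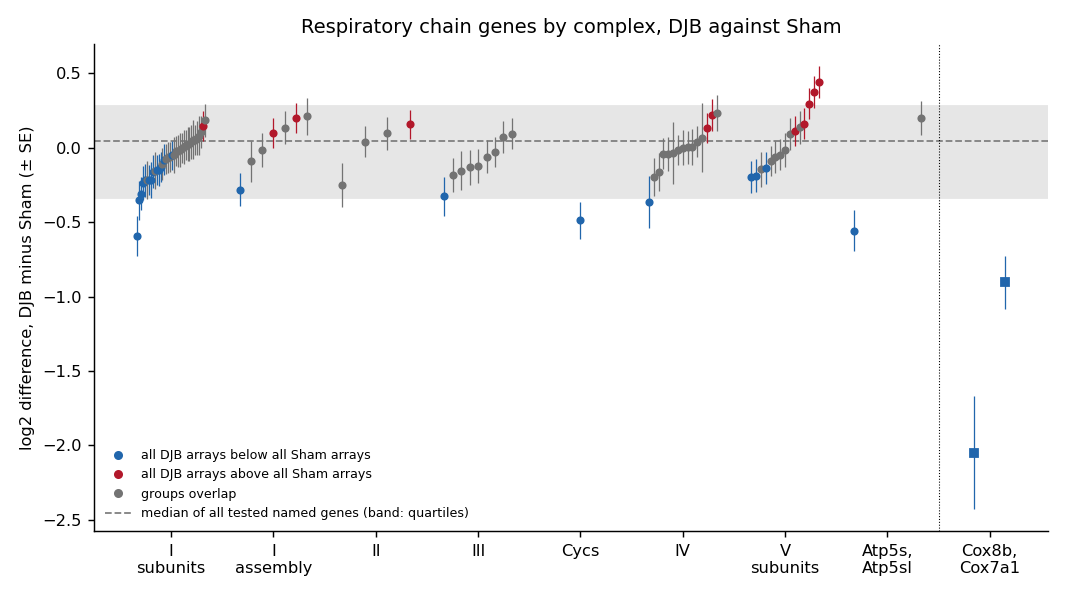
Difference in expression of each respiratory chain gene (DJB minus Sham, log2, with its standard error) by complex. Blue and red points mark genes whose 3 DJB arrays all lay below or above the 3 Sham arrays, grey points overlap, the dashed line and band are the median and quartiles of all named genes, and squares are Cox8b and Cox7a1, which are not members. Members lie between -0.59 and 0.44, while Cox8b lies at -2.05 and Cox7a1 at -0.90.

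The tissue beside these genes did differ between the groups, and in bulk tissue fewer cells of a type and less RNA per cell cannot be told apart. Of 7 adipocyte markers 6 had an unadjusted p under 0.05 and were lower in DJB and 0 were called, with a median difference of -1.12. Their level, taken on each array as the median over the list of the log2 deviation from each gene's mean, lay between 0.30 and 0.74 in Sham and between -1.34 and 0.01 in DJB. The same level of the members stayed between -0.031 and 0.045 on Sham and between -0.043 and 0.0014 on DJB arrays. That of all named genes lay between -0.051 and 0.015 on Sham and between 0.0081 and 0.040 on DJB arrays. A flat level was thus not particular to the members. Of 7 macrophage markers 4 were called higher, Cd68, Gpnmb, Itgam and Lyz2 (levels between -0.71 and -0.25 in Sham and between 0.35 and 0.46 in DJB). Of 10 tested skeletal muscle markers 4 were called lower, Acta1, Myh2, Pvalb and Tnnc2 (between 0.23 and 0.76 in Sham and between -0.56 and -0.36 in DJB), and Myh4 was not tested. Of 6 tested brown and beige adipocyte markers 2 were called lower, and both were Cox7a1 and Cox8b themselves (between 0.22 and 1.08 in Sham and between -1.02 and -0.21 in DJB). Dio2 of that list had every DJB array higher (1.33, SE 0.336, adjusted p = 0.0720), and Ucp1 overlapped (-0.93, SE 1.499). Of the others, 1 of 5 mesothelial markers (Krt19) and 1 of 4 endothelial markers (Kdr) were called lower and 1 of 4 neutrophil markers (S100a9) higher, and the liver markers Alb and Ttr were not tested. Among all named genes 4.9% were called lower and 2.11% higher, and 18.1% had an unadjusted p under 0.05 and were lower. The part of the cell type markers in the members' values was not tested.

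Complex I, the NADH dehydrogenase, is the largest complex, with a core that carries the flavin and iron-sulphur clusters and many accessory subunits around it. Its 36 subunit genes had a median difference of -0.06, with 23 below 0 and 13 above. In 13 of them all DJB arrays lay below all Sham arrays and in 1, Ndufa6, above them, beside 19.7% and 25.4% of all named genes. Those on the lower side were mostly accessory subunits, which make up 29 of the 36 genes. Of 29 accessory subunit genes 12 had DJB arrays wholly below the Sham arrays, and 21 were below 0, with a median of -0.06. The counts for complex I depend on the scaling. Relative to the members' level on each array, 9 of its 36 genes lay wholly below in DJB and 4 wholly above. The 7 core genes had a median of 0.03, with Ndufs3 and Ndufv1 both at -0.22 and Ndufs8 at 0.18 at the ends and 2 below 0. On the second probes described further on, 5 of 6 core genes were below 0, with a median of -0.07. Of 29 accessory genes 26 were below 0 there, with a median of -0.08. The sign for the core thus depended on the probe.

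Ndufb3, an accessory subunit of the membrane arm, had the lowest difference of all members. Its log2 signals relative to each array's 75th percentile were 6.86, 6.62 and 6.69 in Sham and 5.94, 6.23 and 6.22 in DJB, so the groups did not overlap. The difference was -0.59 (SE 0.135, adjusted p = 0.0594), a ratio of 0.664, and did not pass the threshold. Among probes well above background on all 6 arrays alone, where 11.2% of named genes were called, the same difference passed it (adjusted p = 0.0439). It was -0.69 between the arrays of slide 1 and -0.39 between those of slide 2. Ndufab1, the mitochondrial acyl carrier protein, which is also a subunit of complex I, had 5.82, 5.51 and 5.77 on Sham and 5.27, 5.31 and 5.46 on DJB arrays. The groups stood apart narrowly, with a difference of -0.35 (SE 0.131, adjusted p = 0.147). Ndufb9, of the membrane arm, had 7.320, 7.238 and 7.400 against 6.936, 7.097 and 7.005, which again do not overlap (-0.31, SE 0.109, adjusted p = 0.136). At the other end Ndufa3 had 6.33, 6.18 and 6.29 on Sham and 6.26, 6.27 and 6.28 on DJB arrays, and its difference was the nearest to 0 within the complex.

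The 7 complex I assembly factors were on both sides of 0, with a median of 0.10. Ndufaf1, which acts in the assembly of the membrane arm, had 2.62, 2.63 and 2.69 on Sham and 2.23, 2.44 and 2.42 on DJB arrays. Every DJB array was lower, with a difference of -0.28 (SE 0.111, adjusted p = 0.162). Ndufaf4 (0.20, SE 0.10, adjusted p = 0.240) and Ndufaf7 (0.10) had every DJB array higher, and Ndufaf5 reached 0.21 (SE 0.123) with overlapping groups. The 3 tested probes of Ndufaf4 did not read alike, with differences from -0.52 to 0.20, so its direction is not settled. Ndufaf6 was nearest to 0, at -0.02. On the second probes Ndufaf1 to Ndufaf6 were all below 0 (-0.27, -0.04, -0.11, -0.31, -0.36 and -0.12). The signs of the assembly factors thus depended on the probe.

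Complex II, the succinate dehydrogenase, is also an enzyme of the citric acid cycle, and all of its subunits are nuclear. Its flavoprotein gene Sdha had 4.308, 4.199 and 4.510 on Sham and 3.991, 3.969 and 4.302 on DJB arrays. The highest DJB array reached into the Sham range, and the difference was -0.25 (SE 0.148, adjusted p = 0.312). It was 0.10 within slide 2, the opposite sign, where Sham-2 alone stood against DJB-3. On its second probe every DJB array was lower (-0.33, SE 0.108, adjusted p = 0.118). The other 3 subunit genes were above 0: the iron-sulphur subunit Sdhb at 0.10 and the membrane anchors Sdhc at 0.04 and Sdhd at 0.16. Of these only Sdhd had DJB arrays (6.08, 6.07 and 6.01) wholly above the Sham arrays (5.90, 5.92 and 5.86), with an adjusted p of 0.333. On the second probes Sdhb was at 0.02, Sdhc at -0.01 and Sdhd at 0.09, each with overlap.

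Complex III, the cytochrome bc1 complex, had the lowest median of the 5 complexes, -0.12 over 9 genes, with 7 below 0 and 2 above. Uqcrfs1, the Rieske iron-sulphur protein, had 6.19, 6.13 and 6.28 on Sham and 5.94, 6.01 and 5.68 on DJB arrays. Among the probes of the rule it was the one gene of the complex whose groups did not overlap (-0.33, SE 0.130, adjusted p = 0.167). Cyc1, the cytochrome c1 subunit, overlapped (-0.18, SE 0.115), as did the core protein gene Uqcrc2 (-0.15, SE 0.130). On the second probes Cyc1 (-0.26, SE 0.117), Uqcr11 (-0.17), Uqcrq (-0.13) and Uqcrfs1 (-0.13, SE 0.110) each had every DJB array lower. Uqcr10, a small subunit, was nearest to 0 at -0.03, and Uqcrb and Uqcrh were above it at 0.09 and 0.07. Cycs, cytochrome c itself, carries electrons from complex III to complex IV and, once released from mitochondria, takes part in apoptosis. It had 5.49, 5.23 and 5.34 on Sham and 4.99, 4.87 and 4.76 on DJB arrays, which do not overlap. Its difference was -0.49 (SE 0.124, adjusted p = 0.0732), and -0.49 and -0.47 within slides 1 and 2. Its 3 probes ranged from -0.53 to -0.16.

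Complex IV, cytochrome c oxidase, was centred on 0. Of its 17 genes 15 were tested, 8 below 0 and 7 above, with a median of -8.67e-05 and a range from -0.36 to 0.23, although this median moved to 0.11 with median scaling. The 11 subunits found in most tissues ranged from -0.20 for Ndufa4 to 0.23 for Cox5a, with quartiles of -0.04 and 0.02. Cox6a1 (9.61, 9.55 and 9.68 on Sham and 9.53, 9.76 and 9.54 on DJB arrays) had the difference nearest to 0 of all members, and Cox4i1, the common isoform of the largest nuclear subunit, had 0.04 (SE 0.105). Cox5a, which binds thyroid hormone metabolites, reached 0.23 (SE 0.121, adjusted p = 0.259) with overlapping groups. Cox7a2l, known for joining complexes III and IV into supercomplexes, had 5.02, 5.11 and 5.16 on Sham and 5.30, 5.24 and 5.42 on DJB arrays. Every DJB array was higher, with a difference of 0.22 (SE 0.109, adjusted p = 0.240). Ndufa4 had -0.20 (SE 0.128), with overlap, and its paralog Ndufa4l2, found on the array by accession alone, had -0.22 (SE 0.152), also with overlap.

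The complex IV isoforms known from particular tissues did not share a direction. Cox6b2, mainly of testis, had -0.36 (SE 0.173, adjusted p = 0.226), with 1.84, 1.38 and 1.37 on Sham and 1.34, 1.14 and 1.02 on DJB arrays. Its second, accession-named probe gave -0.01 (SE 0.109) with overlap. Cox6a2, of heart and skeletal muscle, had 0.07 (SE 0.231), and Cox4i2, known from lung, had -0.04 (SE 0.207) on a probe near background and 0.07 (SE 0.135) on its second probe. Cox7b2 and Cox8c, both known from testis, were not tested, since Cox7b2 was well above background on 1 Sham array and Cox8c on 2, and neither on any DJB array. The muscle and brown fat isoforms outside the rule were different. Cox7a1 had 3.66, 3.19 and 3.28 on Sham and 2.33, 2.71 and 2.38 on DJB arrays, and its log2 level fell by 0.90 (SE 0.178, adjusted p = 0.0468). Cox8b fell by 2.05 (SE 0.380, adjusted p = 0.0429), from 4.28, 3.81 and 4.52 to 1.84, 2.96 and 1.65. On the second probes Cox7a1 was called (-1.01, adjusted p = 0.0421) and Cox8b was not (-2.01, adjusted p = 0.0519). Neither call held when any single array was left out, with differences of -1.02 to -0.76 for Cox7a1 and -2.46 to -1.80 for Cox8b. The adjusted p then ranged from 0.0796 to 0.147 and from 0.0535 to 0.151.

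Complex V held the members with the highest differences. Its 15 subunit genes had a median of -0.01, with 3 having all DJB arrays below and 5 having all DJB arrays above the Sham arrays. Of all named genes 19.7% lay wholly below and 25.4% wholly above. Relative to the members' level on each array, 3 complex V genes lay wholly below in DJB and 7 wholly above. The 5 genes of the catalytic F1 part had a median of -0.09, with Atp5a1 and Atp5b both at -0.14. Atp5e, the small epsilon subunit of F1, stood apart from them with 7.58, 7.60 and 7.58 on Sham and 7.95, 7.78 and 7.91 on DJB arrays (0.30, SE 0.105, adjusted p = 0.135). The 10 genes of the stalk and membrane part had a median of 0.05. Atp5k, a small membrane subunit, was nearest to 0 at -0.01, and Atp5o, the oligomycin sensitivity conferring protein of the stalk, was at -0.20 with every DJB array lower.

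Atp5g1, Atp5g2 and Atp5g3 encode the same mature protein, the c subunit of the membrane ring that turns as protons pass, with different targeting sequences. Atp5g1 had 4.90, 4.86 and 4.85 on Sham and 5.42, 5.27 and 5.25 on DJB arrays, so every DJB array was higher (0.44, SE 0.106, adjusted p = 0.0646). Atp5g2 had 6.85, 6.78 and 6.82 against 7.27, 7.25 and 7.07 and lay the same way (0.38, SE 0.110, adjusted p = 0.0932). Atp5g3 had 7.96, 7.84 and 7.96 against 7.82, 7.73 and 7.65 and lay the other way, with every DJB array lower (-0.19, SE 0.109, adjusted p = 0.307). Within slides 1 and 2, Atp5g1 had 0.47 and 0.38 and Atp5g2 had 0.42 and 0.29. The ratio of 2 genes on the same array does not depend on the scaling. Relative to the Sham mean, the log2 ratio of Atp5g1 to Atp5g3 was -0.02, 0.08 and -0.06 on Sham and 0.65, 0.59 and 0.65 on DJB arrays, a shift of 0.63 (SE 0.045). That of Atp5g2 to Atp5g3 shifted by 0.56 (SE 0.038). In a two-sided exact permutation test each shift had p = 0.1, the smallest that 3 against 3 arrays allow, and 0.15 after adjustment over the 6 isoform pairs compared. Every DJB array was higher for Atp5g1 and Atp5g2 and lower for Atp5g3, so these ratios had to separate. The test therefore adds nothing to the single-gene values. The other pairs were of complex IV, where the ratio of Cox7a1 to Cox7a2 shifted by -0.86 (SE 0.162) and that of Cox8b to Cox8a by -1.89 (SE 0.379), both without overlap. The ratios of Cox4i2 to Cox4i1 (-0.08, SE 0.213, exact permutation p = 0.7) and of Cox6a2 to Cox6a1 (0.07, SE 0.304, exact permutation p = 0.9) overlapped. These pairs were set side by side with the single-gene values already known.

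**Figure D2:**
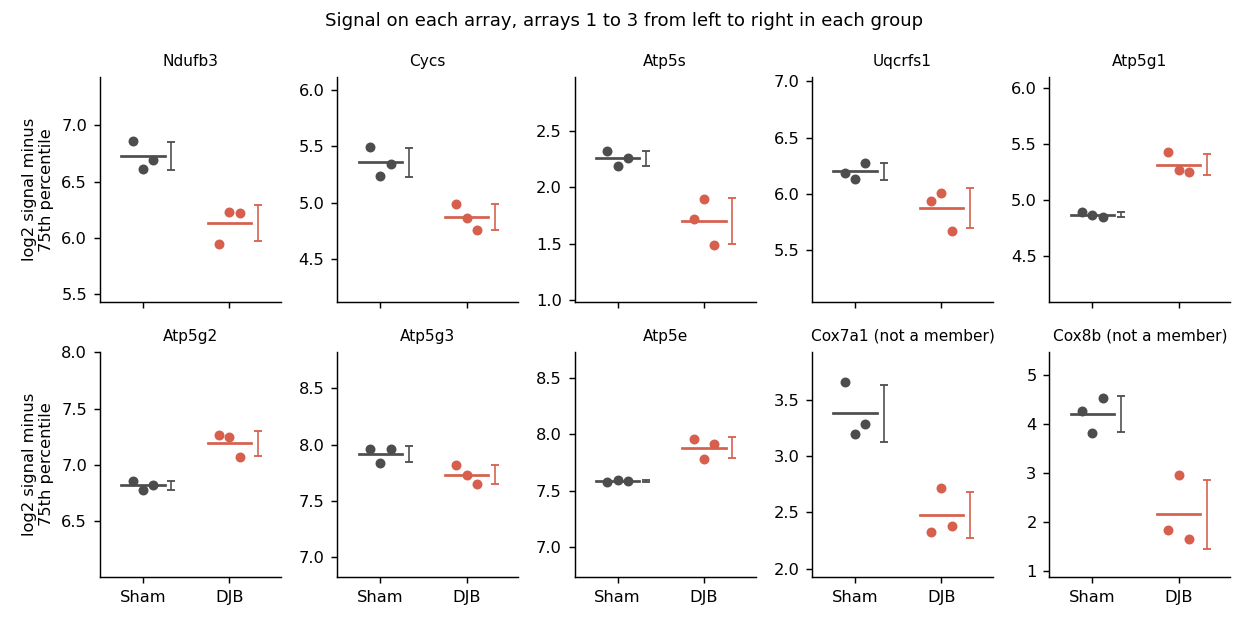
Log2 signal relative to each array's 75th percentile on the 3 Sham and 3 DJB arrays for 10 genes, with the group mean as a bar and its SD; Cox7a1 and Cox8b are not members, and the Cox8b panel spans a wider axis. In every panel all DJB arrays lie on one side of all Sham arrays, below for Ndufb3, Cycs, Atp5s, Uqcrfs1, Atp5g3, Cox7a1 and Cox8b and above for Atp5g1, Atp5g2 and Atp5e.

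The promoters of the c subunit genes are shown because these genes encode 1 protein and lay in different directions. They are the 250 bases before the RefSeq start on the gene's strand in GRCm38.p6, with matches to the searched motifs in capitals, at chr11:96075632-96075881 (Atp5g1, minus strand), chr15:102671048-102671297 (Atp5g2, minus strand) and chr2:73911327-73911576 (Atp5g3, minus strand).
Atp5g1: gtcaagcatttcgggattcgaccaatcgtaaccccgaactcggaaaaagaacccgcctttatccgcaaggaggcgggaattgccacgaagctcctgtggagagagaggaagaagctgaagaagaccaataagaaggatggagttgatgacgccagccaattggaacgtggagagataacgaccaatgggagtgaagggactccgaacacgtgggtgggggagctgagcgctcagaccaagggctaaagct
Atp5g2: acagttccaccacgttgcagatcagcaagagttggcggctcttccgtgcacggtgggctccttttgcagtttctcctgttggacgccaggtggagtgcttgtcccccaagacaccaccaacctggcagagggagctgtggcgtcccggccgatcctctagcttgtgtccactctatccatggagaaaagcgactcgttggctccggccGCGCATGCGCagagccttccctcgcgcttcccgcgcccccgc
Atp5g3: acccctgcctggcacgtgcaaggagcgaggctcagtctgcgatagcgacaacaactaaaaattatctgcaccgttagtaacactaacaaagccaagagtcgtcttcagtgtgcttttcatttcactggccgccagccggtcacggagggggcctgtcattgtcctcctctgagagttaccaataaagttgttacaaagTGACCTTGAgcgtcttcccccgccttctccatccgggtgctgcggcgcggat
The 4 motifs searched on both strands were those of NRF1 (GCGCA, then any base N, then GCGC), the estrogen-related receptors (TCAAGGTCA), GABPA (CCGGAAGT) and YY1 (AAGATGGC), factors known from the promoters of respiratory chain genes. Atp5g2 has a match to the NRF1 letters and Atp5g3 one to those of the estrogen-related receptors on the opposite strand, while Atp5g1 has none of the 4 in these 250 bases. Over the whole window of 250 bases before to 50 after the start, 75 of the 91 members matched a promoter by symbol. In that longer window Atp5g3 also holds the NRF1 letters, as Atp5g2 does, and Atp5g1 has none of the 4. The NRF1 letters were in 19 of these (25.33%) and in 5.19% of all 27025 genes of the table. The YY1 letters were in 11 members (14.67% against 3.19%), the GABPA letters in 5 (6.67% against 4.31%) and the receptor letters in 2 (2.67% against 0.47%). By complex, the NRF1 letters were in 7 of 32 complex I, 2 of 3 complex II, 1 of 5 complex III, 1 of 12 complex IV and 6 of 14 complex V promoters. Members with the NRF1 letters had a median difference of -0.012 (n = 19) and those without -0.045 (n = 55), with 11 and 34 members below 0.

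Atp5s, a mitochondrial protein first described as a coupling factor of the ATP synthase, had the second lowest difference of the members. Its values were 2.32, 2.18 and 2.26 on Sham and 1.71, 1.90 and 1.49 on DJB arrays, without overlap (-0.56, SE 0.138, adjusted p = 0.0695). Its other probe under the symbol had -0.16. Atp5sl had 0.20 with overlapping groups.

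The array holds further probes that carry a RefSeq accession in place of a symbol, and these gave a second reading of 86 members on the same 6 arrays. Over these probes the median difference was -0.06, with 58 members below 0 and 28 above, and 67 of 87 probe pairs had the same sign. The gap between the 2 readings of a member had a median of 0.0611. Most pairs read different stretches of the transcript, as 64 of the 87 shared no run longer than 15 bases, and 50 of those had the same sign. The second reading was lower for complex I (median -0.08, with 31 of 35 genes below 0) and close for complex III (-0.13), and it put complexes IV and V both at 0.04. Ndufb3 was called lower on its second probe, which had 7.39, 7.15 and 7.19 on Sham and 6.50, 6.61 and 6.55 on DJB arrays, and its log2 level fell there by 0.69 (SE 0.116, adjusted p = 0.0374). It was the 1 member called in this reading, where 7.81% of the genes read this way were called. Atp5g2 and Atp5g3 kept their directions without overlap (0.25 and -0.18), but Atp5g1 had 0.15 (SE 0.205) with overlap on a second probe whose signal was low. The ratio of Atp5g1 to Atp5g3 on the second probes shifted by 0.33 with overlap, and that of Atp5g2 to Atp5g3 by 0.43 without. Cycs had the widest gap, with -1.21 (SE 0.292, adjusted p = 0.0658) on a second probe of low signal. Ndufaf3, Ndufaf4 and Ndufaf5 had the opposite sign on their second probes (-0.11, -0.31 and -0.36), of which the last 2 were of low signal. For Atp5s both probes have the same sequence, and its second spot gave -0.44 (SE 0.188) with overlapping groups.

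**Figure D3:**
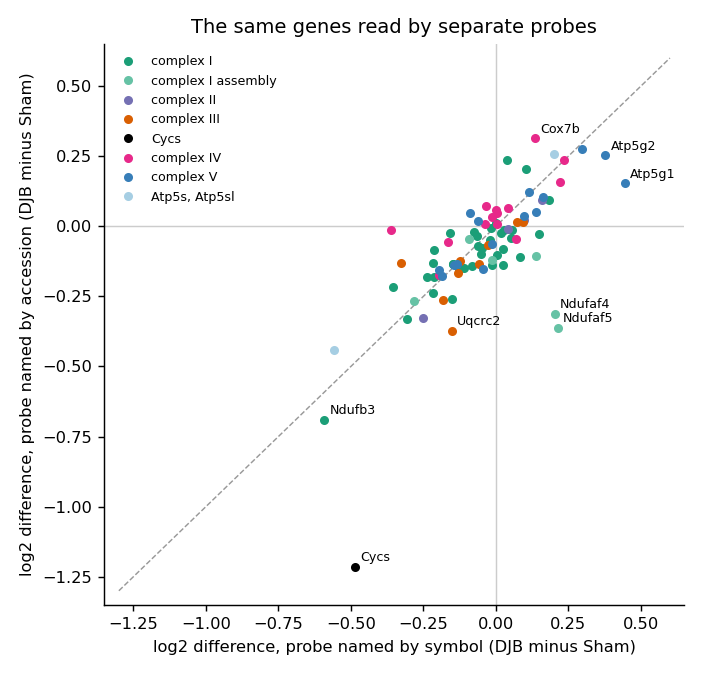
Difference (DJB minus Sham, log2) of each member on its symbol-named probe and on its accession-named probe, 1 point per probe pair. Most points lie near 0 on both axes. Ndufb3 is low on both (-0.59 and -0.69), and Cycs lies farthest from equality (-0.49 and -1.21).

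Genes that act around the chain were read from lists outside the rule, and none of their members was called, where 7.01% of all named genes were. The 36 tested assembly factors of complexes I to V beyond the Ndufaf genes had a median of -0.03, with 10 wholly lower and 6 wholly higher in DJB. Of all named genes 19.7% were wholly lower and 25.4% wholly higher. The ends were Coa4, a complex IV assembly factor (0.60, SE 0.173, adjusted p = 0.0913), and Sdhaf3, which serves complex II (-0.46, SE 0.127, adjusted p = 0.0826). The 16 regulators of mitochondrial genes had a median of 0.10. Ppargc1a, the coactivator PGC-1 alpha, had 1.58, 1.22 and 0.61 on Sham and -0.20, -0.35 and 0.23 on DJB arrays, without overlap (-1.24, SE 0.283, adjusted p = 0.0594). Nrf1, the factor whose letters were searched above, had 0.39 (SE 0.140, adjusted p = 0.142), and Tfam, the packaging factor of mitochondrial DNA, had 0.08. The 12 citric acid cycle enzymes had a median of -0.21, with 10 below 0 and 7 wholly lower in DJB, beside 19.7% of all named genes. Idh3a, a subunit of the isocitrate dehydrogenase, had 5.782, 5.369 and 5.497 on Sham and 4.604, 4.849 and 5.230 on DJB arrays (-0.66, SE 0.20, adjusted p = 0.101), and Suclg2, of succinyl-CoA synthetase, had -0.52 (SE 0.160, adjusted p = 0.104). The regulators ranged from -1.24 to 0.39, wider than the members, with Ppargc1a as the lower end. Their quartiles were -0.07 and 0.18, beside -0.15 and 0.07 for the members. The difference between these lists was not tested.

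**Figure D4:**
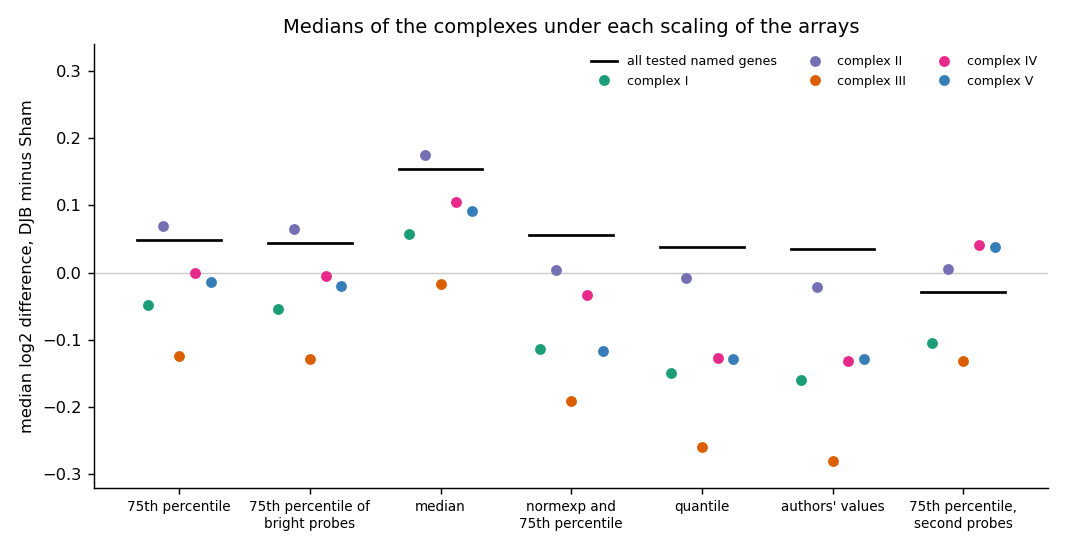
Median difference (DJB minus Sham, log2) of each complex under each scaling of the arrays, with normexp background correction and on the second, accession-named probes, beside that of all named genes (black lines). Complex III is below 0 throughout, at -0.02 with median scaling and -0.28 with the authors' values, while the medians of complexes I, IV and V are above 0 with median scaling and below 0 with quantile normalization.

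With the assembly factors counted in complex I and Atp5s and Atp5sl in complex V, the signs of the medians moved with the scaling. Under median scaling the medians were 0.06 for complex I, 0.18 for II, -0.02 for III, 0.11 for IV and 0.09 for V, and under quantile normalization -0.15, -0.01, -0.26, -0.13 and -0.13. Complex III was the lowest and complex II the highest in both, as in the main scaling. The members' median lay below that of all named genes in every setting tried. On single arrays, the SD of the complex medians within groups was between 0.0365 for complex I and 0.0662 for complex II.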

How the data were processed

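RNA from 6 adipose samples was measured on Agilent arrays, 3 per group. Per the file headers, the authors quantified the scans with Feature Extraction 12.0.3.1 (protocol GE1_1200_Jun14), and the deposited processed intensity is background-subtracted and linear. The authors also deposited log2 values for each array, which correlated best with their own array (r of at least 0.99934), have medians between 4.546 and 4.558 and are not centred per gene; their normalization is not given in the sources used here, and they served as an alternative. The submitters' processing notes name limma without a role.

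The log2 processed intensity minus each array's 75th percentile over 150305 non-control probes was used. Outlier-flagged spots (18 to 25 on an array) were treated as missing, and none was saturated. Probes well above background on at least 3 of 6 arrays (99431) were tested with limma 3.58.1 in R 4.3.3 (lmFit, eBayes, two-sided, no covariates), Benjamini-Hochberg adjusted over all of them at 0.05, and this gives every adjusted p. Tests were checked on simulated data. Ratios used Python 3.11.15 with scipy 1.17.1. Genes are probes with a RefSeq accession and a symbol, 1 probe each by highest mean signal. The second, accession-named probes were added after seeing the data. Promoters are from RefSeq (GRCm38.p6).

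The 75th percentile signal was between 175.8 and 183.7 in Sham and between 132 and 165.3 in DJB, and 62.6% to 68.8% of probes were well above background. The number of arrays limits the precision. Slide 1 held Sham-1, Sham-3, DJB-1 and DJB-2, and slide 2 Sham-2 and DJB-3. The members and lists were chosen with earlier results of these data known. The genes named in full were, in each complex and among the assembly factors, the 3 tested members with the largest absolute difference and the 1 nearest to 0, with all of complex II, Cycs, Cyc1, undetected members and isoform pairs, and in other lists called genes and the 2 largest; other genes with values, among them Atp5g3, were chosen after these were seen. The tested alternatives were background correction, scaling, filters, the prior, slide and replicate blocks, probe choice and leaving out each array. The design text of the series describes another experiment and was not used.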

Additional observations from a re-analysis of the deposited data

How the results depend on the processing

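The 13 genes outside the members given as called had the same direction in every alternative that gave a value, 272 values in all, and stayed called in 144 of the 246 with a test. With normexp background correction 2615 named genes were called, 8 members lower (among them Ndufb3, Cycs, Atp5s and Ndufaf1) and 1 higher (Atp5g1), and the medians were -0.11 for complex I, -0.19 for III and -0.12 for V; a trended robust prior called 2613 genes, 3 members lower (Ndufb3, Cycs, Atp5s) and 2 higher (Atp5g1, Atp5g2). In these medians complexes I and V include Ndufaf1 to 7 and Atp5s and Atp5sl. Median scaling gave 0.0569, 0.176, -0.0177, 0.106 and 0.0910 for complexes I to V, quantile normalization -0.150, -0.00759, -0.259, -0.127 and -0.129, and the authors' values -0.160, -0.0209, -0.281, -0.132 and -0.129. Only probes well above background on all 6 arrays left 1 member called lower (Ndufb3, adjusted p = 0.0439 in limma), and no filter left 151 genes called. The accession-named probes called 1 member lower, with medians of -0.104, 0.0408 and 0.0378 for complexes I, IV and V. The mean of a gene's probes gave -0.0641 for complex III, and slide 2 alone -0.0104 for complex I. Slide as a block left 173 genes and 0 members called. Whether the replicate numbers pair the arrays is not known. Same-numbered deviations correlated at -0.18, -0.12 and -0.29, and differently numbered arrays were not compared in this way. With a replicate block limma called 0 genes, where 4370 genes and 5 members had an unadjusted p under 0.05. Leaving out 1 array gave 34 to 960 called genes (34 without Sham-1, 44 without DJB-2, 83 without Sham-2, 199 without DJB-1), 0 members in either direction, and medians of -0.0562 to -0.0208 (I), 0.0364 to 0.116 (II), -0.179 to -0.0737 (III), -0.0314 to 0.0326 (IV) and -0.0686 to 0.0266 (V). The causes were not tested. Cox7b2, Cox8c and the symbol-named probe of Cox4i2 were limited by signal near background.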
